A study of Mus musculus with 22 samples.

Results

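Adenylyl cyclases make the second messenger cyclic AMP (cAMP) from ATP, and the 10 mouse genes of the family, *Adcy1* to *Adcy10*, were followed here through stem cells, neural progenitors and adult brain with and without *Phf8*. The members were selected by name, each matched a single Ensembl identifier, and they are 10 of the 39179 gene identifiers in every count table. The family was chosen because *Adcy7* was higher in *Phf8* KO than in WT prefrontal cortex, so the values of that contrast are given as a description, without a test. *Adcy7* was also left untested in every other comparison that uses prefrontal cortex samples.

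The study deleted exons for part of the catalytic JMJC domain of *Phf8*, an X-linked histone demethylase, and all 22 samples came from the B6x129SvJ background. Embryonic stem cells (ESCs) were blastocyst-derived, grown on gelatin or feeder cells, with 2 WT and 2 KO samples. Neural progenitor cells (NPCs) were monolayer cultures from E16.5 embryos, and ventral striatum (STR) and prefrontal cortex (PFC) came from mice aged 2 months, with 3 WT and 3 KO samples each. The labels do not say whether replicates are separate animals or cultures, or whether STR and PFC samples came from the same mice.

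The membrane-bound cyclases are all activated by stimulatory G alpha proteins and differ in what else they sense. Calcium with calmodulin stimulates *Adcy1*, *Adcy3* and *Adcy8*, G protein beta gamma subunits stimulate *Adcy2*, *Adcy4* and *Adcy7*, calcium inhibits *Adcy5* and *Adcy6*, and *Adcy9* is only weakly sensitive to forskolin. *Adcy10* encodes the soluble enzyme, which responds to bicarbonate. In the striatum, *Adcy5* couples dopamine and adenosine receptors to cAMP through the olfactory type G alpha subunit.

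Per sample, between 5898286 and 15539811 reads were counted on genes. *Phf8*, checked first, fell in NPC and PFC KO samples, with log2 fold changes of -1.41 and -1.37 (adjusted p 0.0285 and 0.00193 in edgeR's quasi-likelihood test), and every KO sample was below every WT sample in all 4 tissues. In STR and ESCs its log2 fold changes were -1.37 (adjusted p 0.0956 in edgeR) and -1.79 (adjusted p 1 in edgeR). Markers fitted the labelled tissues: summed striatal projection neuron markers were 1018 to 1369 CPM (counts scaled to library size) in STR against 185 to 205 in PFC, and pluripotency markers were 2347 to 2872 CPM in ESCs against 3.99 to 5.66 in NPCs. Cortical projection neuron markers were 862 to 1085 CPM in WT PFC but also 354 to 511 CPM in WT STR. The part of such cells in the STR values of the members was not tested. Several libraries stood apart from their groups. The first STR KO sample held 126 CPM of hypothalamus markers, against 1.32 to 16.7 in the other STR samples, and 69.3 CPM of cortical projection neuron markers, against 334.5 to 511. In ESCs, the second sample of each genotype held 3473 and 4243 CPM of fibroblast feeder markers, against 159 and 149.5 in the first samples. In NPCs, the second sample of each genotype held 42.6 and 178 CPM of oligodendrocyte markers, against 1453 to 2487 in the others. Some results that rest on these libraries are also given without them, and the others carry that limit. In bulk samples such as these, fewer cells of a type and less RNA per cell cannot be told apart.

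In GRCm38, *Adcy5* and *Adcy9* share chromosome 16 and *Adcy6* and *Adcy8* share chromosome 15. *Adcy1* (chr11:7063489-7178506, plus strand) and *Adcy2* (chr13:68620043-68999541, minus strand) are long genes, as are *Adcy5* (chr16:35154877-35305738, plus strand), *Adcy8* (chr15:64697084-64922296, minus strand) and *Adcy9* (chr16:4287529-4420498, minus strand). The others are *Adcy3* (chr12:4133103-4213525, plus strand), *Adcy4* (chr14:55769057-55784095, minus strand), *Adcy6* (chr15:98589973-98610076, minus strand), *Adcy7* (chr8:88272403-88329962, plus strand) and *Adcy10* (chr1:165485183-165576774, plus strand). Exons of 3 members overlap genes on the other strand. *Cenpo* overlaps 22.1% of the exon bases of *Adcy3*, the antisense gene *Gm29331* overlaps 8.92% of *Adcy6*, and *Gm35161* overlaps 4.49% of *Adcy2*. Strand was not used in counting ESC and NPC samples and its use is not stated for the brain samples, so reads there cannot be told apart, and the values of these 3 genes carry that limit.

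The sequences before the start sites of *Adcy1*, *Adcy5* and *Adcy7* are shown because these genes led PFC, led STR and differed between genotypes in PFC. Each is the 250 bases upstream of a RefSeq start site in GRCm38.p6, read 5′ to 3′ on the strand of the gene. Capitals mark searched motifs on either strand: the CRE TGACGTCA, its core TGACG, the GC box GGGCGG, the TATA box TATAAA and the E-box CACGTG. The regions are chr11:7063183-7063432 for *Adcy1*, chr16:35154614-35154863 for *Adcy5* and chr8:88282742-88282991 for the first of 3 *Adcy7* start sites. All 3 *Adcy7* windows lie inside the gene as given above (chr8:88272403-88329962), while those of *Adcy1* and *Adcy5* lie just before their gene starts. No window before the start of the *Adcy7* gene was examined.
Adcy1: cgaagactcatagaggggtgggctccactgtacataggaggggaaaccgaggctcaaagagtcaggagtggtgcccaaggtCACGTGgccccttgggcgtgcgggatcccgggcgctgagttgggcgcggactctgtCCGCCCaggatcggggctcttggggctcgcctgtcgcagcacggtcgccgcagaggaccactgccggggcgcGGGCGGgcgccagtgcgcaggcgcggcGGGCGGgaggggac
Adcy5: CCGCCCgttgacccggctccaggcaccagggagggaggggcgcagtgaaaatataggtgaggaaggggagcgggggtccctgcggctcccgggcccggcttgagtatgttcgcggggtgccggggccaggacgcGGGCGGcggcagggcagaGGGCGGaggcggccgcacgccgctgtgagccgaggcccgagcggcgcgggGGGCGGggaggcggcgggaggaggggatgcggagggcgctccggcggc
Adcy7: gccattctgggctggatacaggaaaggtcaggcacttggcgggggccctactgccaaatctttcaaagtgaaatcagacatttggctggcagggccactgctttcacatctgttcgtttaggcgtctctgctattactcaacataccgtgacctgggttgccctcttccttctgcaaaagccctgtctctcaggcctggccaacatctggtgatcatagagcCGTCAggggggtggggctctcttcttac
The *Adcy1* and *Adcy5* windows were rich in G and C, at 71.2% and 78.0%, with 26 and 32 CG dinucleotides. The *Adcy7* window had 54.0% G and C and 5 CG dinucleotides, close to the medians of 52.4% and 6 over the 32841 mouse windows. The GC box occurred 3 times before *Adcy1*, 4 times before *Adcy5* and not in the printed *Adcy7* window, and 32.7% of all windows held it. The *Adcy7* window held 1 CRE core, a motif found in 17.8% of windows, and the *Adcy1* window held 1 E-box, found in 6.02%. Of the other 2 *Adcy7* windows neither held the CRE core, and the one at chr8:88293954-88294203 held 1 GC box. None of the 8 members with a RefSeq window held a full CRE, which 1.55% of windows held. A match of letters is a description and not evidence of a binding site.

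To compare members with each other, counts were scaled to RPKM, which divides CPM by the kilobases of exon, with TMM library sizes over all 22 samples. Summed over the 10 members, the family rose from 10.5 ± 3.37 RPKM (SD, n = 2) in WT ESCs to 51.1 ± 4.02 (SD, n = 3) in NPCs, 163 ± 8.61 (SD, n = 3) in STR and 183 ± 7.44 (SD, n = 3) in PFC. No range of 1 tissue overlapped that of another. The KO sums were 11.6 ± 3.20 (SD, n = 2), 50.5 ± 1.205 (SD, n = 3), 165 ± 17.3 (SD, n = 3) and 199.5 ± 5.60 RPKM (SD, n = 3), in the same order. By mean share a different member led each tissue, as the plot of family shares shows.

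**Figure D1:**
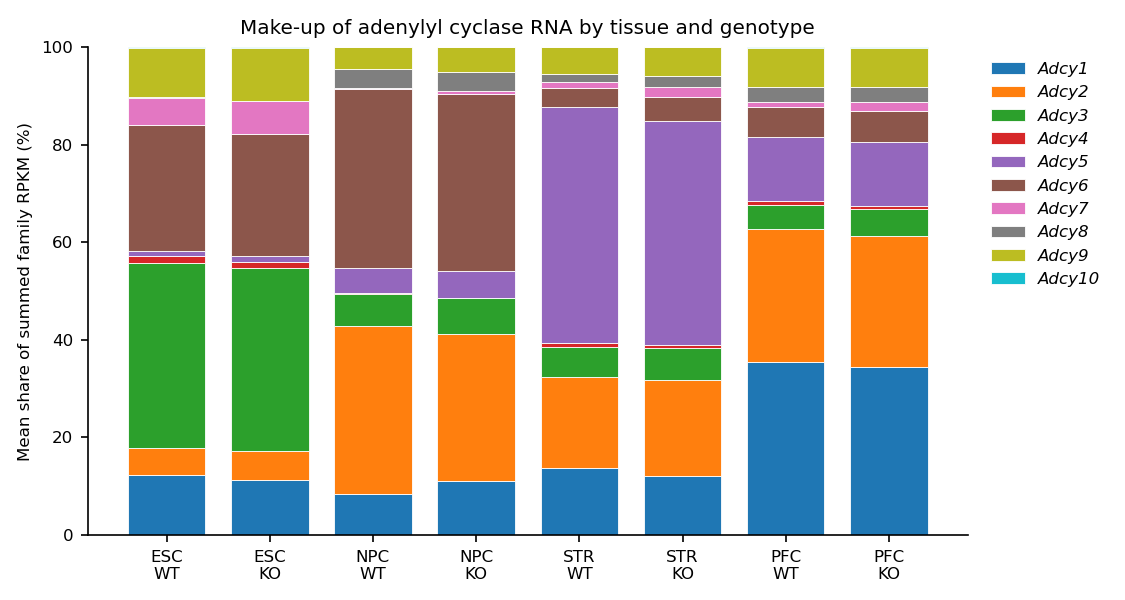
Stacked bars give the mean share (%) of each member in the summed RPKM of the 10 adenylyl cyclase genes, for each tissue and genotype (n = 2 in ESCs, n = 3 elsewhere). *Adcy3* and *Adcy6* take most of the ESC bars, *Adcy6* and *Adcy2* most of the NPC bars, *Adcy5* is the widest block in STR (48.4% in WT) and *Adcy1* in PFC (35.5% in WT).

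In ESCs *Adcy3*, a calcium-sensitive cyclase also known from olfactory cilia, held 37.8% of family RPKM in WT, with 45.4% and 30.2% in the 2 samples. *Adcy6* held 13.1% and 38.5% in the same samples, and its RPKM was 1.07 in the first WT sample and 4.98 in the second. The KO samples split the same way, at 1.37 and 4.88 RPKM. In each genotype the sample with high *Adcy6* was also the one with high feeder markers, whose part in the *Adcy6* level was not tested. *Adcy8* was nearly absent from ESCs, with 1, 0, 1 and 0 reads in the 4 samples.

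NPCs used *Adcy6* (36.7% ± 2.50 of family RPKM, SD, n = 3 WT) and *Adcy2* (34.5% ± 10.2, SD, n = 3 WT). *Adcy6* varied little among NPC samples, from 17.9 to 19.2 RPKM over both genotypes. *Adcy2* stood at 13.1, 25.5 and 15.0 RPKM in WT and at 14.7, 16.9 and 13.9 in KO samples, the highest value of each genotype being the second sample. *Adcy5* was instead lowest in the second sample of each genotype, with 3.40, 1.33 and 2.91 RPKM in WT and 3.51, 1.76 and 3.16 in KO samples. *Adcy8* was lowest in the same samples, at 1.14 RPKM in WT and 1.32 in KO against 1.87 to 2.79 in the others. These second samples are those with few oligodendrocyte markers, and whether the markers account for the *Adcy* values was not tested.

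In STR *Adcy5* alone took 48.4% ± 3.82 (SD, n = 3) of family RPKM in WT and 45.9% ± 1.07 (SD, n = 3) in KO samples, followed by *Adcy2* (18.6% in WT) and *Adcy1* (13.8% in WT). In PFC *Adcy1* took 35.5% ± 0.452 and *Adcy2* 27.2% ± 2.60 (SD, n = 3 WT). Grouped by their regulation, the calcium-inhibited members *Adcy5* and *Adcy6* made up 52.4% ± 3.43 of family RPKM in WT STR and 19.2% ± 1.09 in WT PFC (SD, n = 3). The calcium/calmodulin-stimulated members *Adcy1*, *Adcy3* and *Adcy8* made up 21.6% ± 1.92 and 43.5% ± 0.520 (SD, n = 3). The ranges of the STR and PFC samples did not overlap for either class. Nor did they for the G beta gamma-stimulated members *Adcy2*, *Adcy4* and *Adcy7*, at 20.4% ± 1.16 and 29.1% ± 2.66 (SD, n = 3). Within the first 2 classes, *Adcy6* (4.02% in WT STR, 6.10% in WT PFC) and *Adcy3* (6.17% and 5.025%) went against the direction of their class. *Adcy1*, *Adcy5* and *Adcy8* followed theirs. The share of *Adcy1* depends on dividing by gene length: as a share of family counts it was 55.2% in WT PFC, with *Adcy2* at 14.25%, because its 12522 bases of exon are the longest of the family. In WT STR the order of the pair turned without length, with *Adcy1* at 24.0% and *Adcy2* at 10.9% of family counts, while *Adcy5* stayed first at 48.5%.

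**Figure D2:**
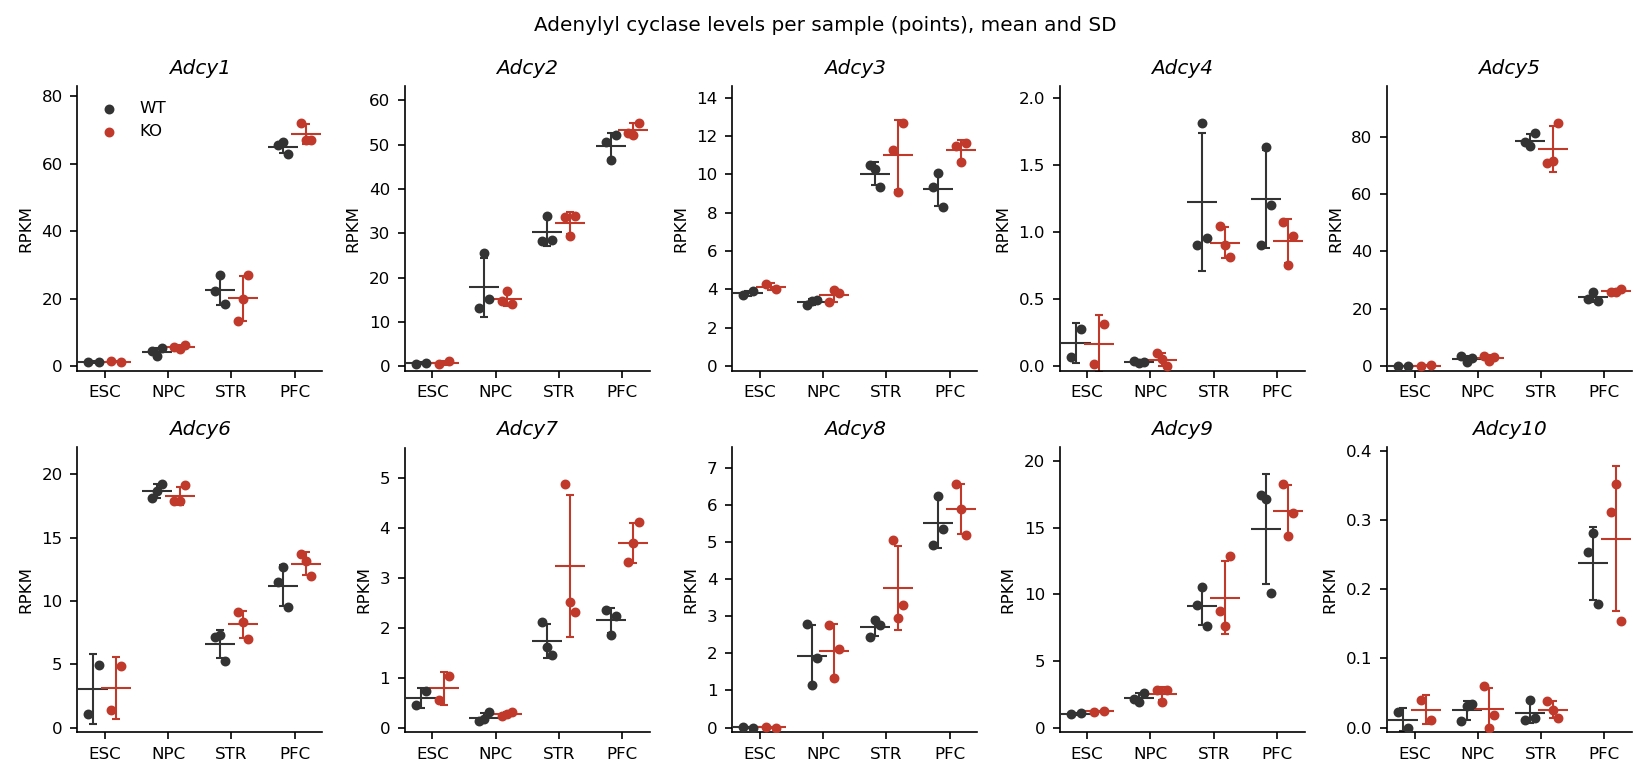
Each panel plots the RPKM of a member in every sample (points) of ESCs, NPCs, STR and PFC, with the mean and SD of each genotype (lines), WT in black and KO in red. The axes begin just below 0 and differ between panels. *Adcy5* is highest in STR, *Adcy1*, *Adcy2* and *Adcy8* in PFC and *Adcy6* in NPCs, and *Adcy7* KO points lie above all WT points in PFC and STR.

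The order of levels over the WT tissues differed between members. *Adcy1* and *Adcy2* rose without overlap from ESCs to NPCs, STR and PFC. *Adcy5* rose in the order ESCs, NPCs, PFC and STR, again without overlap. *Adcy6* was highest in NPCs, followed by PFC, STR and ESCs. *Adcy3*, *Adcy4* and *Adcy7* shared an order in which the PFC and STR ranges overlapped and lay above ESCs, with NPCs lowest. For *Adcy9* the PFC and STR ranges also overlapped, and both lay above NPCs and then ESCs. For *Adcy8*, PFC was highest, the STR and NPC ranges overlapped and ESCs were lowest. *Adcy10* was highest in PFC at 0.179 to 0.281 RPKM, and the other 3 tissues overlapped below 0.04 RPKM, at 0 to 4 reads per WT sample.

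The adult regions were compared in WT samples to ask which members differ between STR and PFC. *Adcy5* was higher in STR, and *Adcy1*, *Adcy2*, *Adcy6*, *Adcy8* and *Adcy9* were higher in PFC. Leaving aside *Adcy7* and *Adcy10*, these are 6 of 8 members tested, where 24.4% of all 15555 genes tested had an adjusted p under 0.05 in edgeR's quasi-likelihood test (11.4% higher in STR and 13.0% lower). *Adcy3* and *Adcy4* did not pass, with log2 differences of 0.14 (SE 0.09) and -0.02 (SE 0.31).

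*Adcy5* measured 78.0, 76.7 and 81.1 RPKM in WT STR and 23.4, 25.98 and 22.8 in WT PFC. The groups were far apart, and the log2 difference (STR minus PFC) was 1.73 (SE 0.08, adjusted p 3.161e-07 in edgeR). *Adcy1* showed the reverse, with 22.2, 27.1 and 18.3 RPKM in WT STR and 65.7, 66.5 and 63.0 in WT PFC, a log2 difference of -1.50 (SE 0.13, adjusted p 1.576e-05 in edgeR). *Adcy1* is the cyclase most closely tied to calcium-dependent plasticity in cortex and hippocampus. *Adcy8*, the other strongly calcium-stimulated enzyme, measured 2.44, 2.90 and 2.75 RPKM in STR and 4.91, 6.25 and 5.36 in PFC, with a log2 difference of -1.01 (SE 0.12, adjusted p 1.391e-04 in edgeR). *Adcy2* (28.3, 33.9 and 28.5 RPKM against 50.6, 46.6 and 52.2) had a log2 difference of -0.69 (SE 0.09, adjusted p 3.22e-04 in edgeR). *Adcy6* (7.13, 7.29 and 5.29 RPKM against 11.5, 12.7 and 9.49) had one of -0.75 (SE 0.14, adjusted p 0.00258 in edgeR). None of these 5 genes had overlapping groups, as was so for 39.5% of all genes tested.

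*Adcy9* measured 9.20, 10.5 and 7.62 RPKM in WT STR and 17.4, 17.1 and 10.1 in WT PFC. The third PFC sample lay within the STR range, and the log2 difference was -0.69 (SE 0.19, adjusted p 0.0221 in edgeR). The call was lost without the low-count filter (adjusted p 0.108 in edgeR) and without any 1 of 4 samples, the first and the third of STR and the first and the second of PFC (adjusted p 0.0523 to 0.0939 in edgeR). Blocked by replicate number, the *Adcy9* difference was -0.67 (adjusted p 2.441e-05 in edgeR). *Adcy10* passed the filter only through PFC, where it had 20, 28 and 10 reads against 1, 3 and 1 in STR, so it is left out of the count above. Over the summed reads its level per counted read was 11.1 times higher in PFC (95% exact interval 4.51 to 35.6, counting error only).

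The same regional comparison in KO samples, which shares no sample with the WT one, called the same 6 of 8 members in the same directions, beside 27.7% of 15538 genes tested. *Adcy5* measured 70.7, 71.3 and 84.9 RPKM in KO STR and 25.7, 25.9 and 26.9 in KO PFC, a log2 difference of 1.56 (SE 0.08, adjusted p 5.569e-06 in edgeR). *Adcy1* measured 13.5, 19.9 and 26.9 RPKM against 72.2, 67.1 and 67.2, a log2 difference of -1.75 (SE 0.21, adjusted p 4.863e-04 in edgeR). Its lowest value was in the STR sample with high hypothalamus and low cortical markers, without which the difference was -1.53 (adjusted p 5.527e-05 in edgeR). *Adcy2*, *Adcy6* and *Adcy9* differed by -0.69, -0.64 and -0.71 (SE 0.07, 0.11 and 0.17). *Adcy9* lost the call without that sample, without the first or the third PFC sample, and without the low-count filter (adjusted p 0.0569, 0.0653, 0.0536 and 0.0608 in edgeR). *Adcy8* differed by -0.61 (SE 0.19, adjusted p 0.0427 in edgeR) and by -0.89 (adjusted p 7.299e-04 in edgeR) without the same STR sample. Without any 1 of the other 5 samples its adjusted p in edgeR was 0.0685 to 0.144, and without the low-count filter it was 0.110. Blocked by replicate number, *Adcy9* differed by -0.73 and *Adcy8* by -0.64 (adjusted p 0.00701 and 0.00733 in edgeR).

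**Figure D3:**
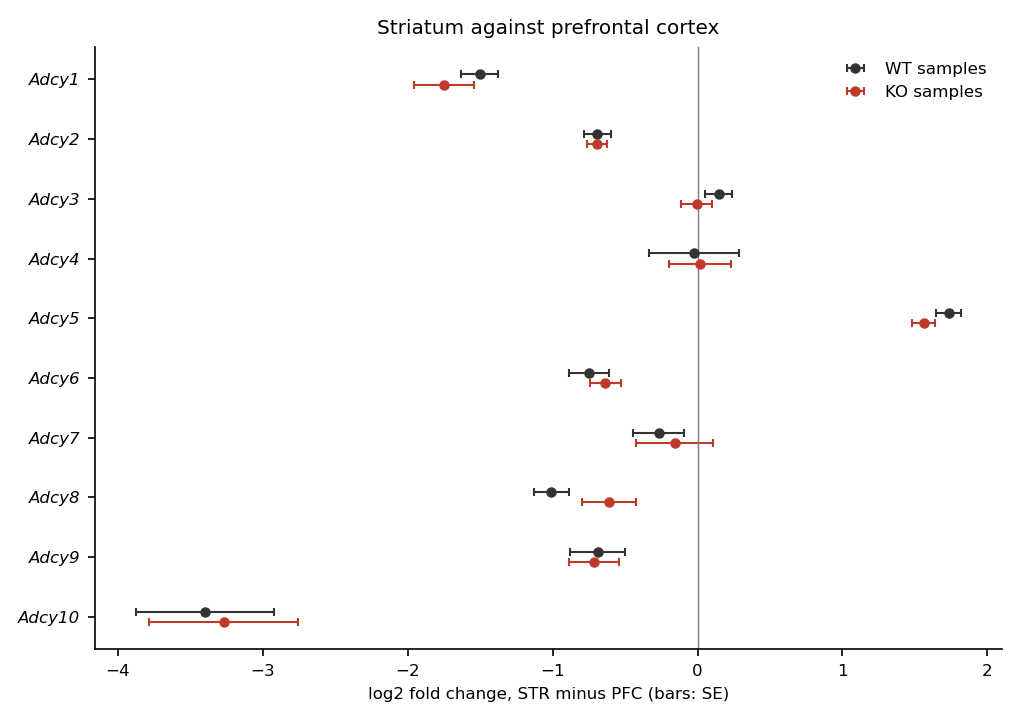
Points give the log2 fold change of each member in STR minus PFC, with SE bars, in WT (black) and KO (red) samples. *Adcy5* is the only member to the right of 0 by more than its SE in both genotypes, and *Adcy1*, *Adcy2*, *Adcy6*, *Adcy8*, *Adcy9* and *Adcy10* lie to the left in both.

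In culture, WT NPCs were compared with WT ESCs. Leaving aside *Adcy5* and *Adcy8*, which passed the filter only through NPCs, 5 of 6 members tested were called, beside 71.2% of 15938 genes tested (34.6% higher in NPCs and 36.6% lower). *Adcy1* (log2 difference 1.93, SE 0.26, adjusted p 0.00167 in edgeR), *Adcy2* (4.96, SE 0.50, adjusted p 6.788e-04 in edgeR), *Adcy6* (2.69, SE 0.66, adjusted p 0.0153 in edgeR) and *Adcy9* (1.19, SE 0.23, adjusted p 0.00580 in edgeR) were higher in NPCs. *Adcy7* measured 0.448 and 0.738 RPKM in ESCs and 0.122, 0.165 and 0.307 in NPCs, and was lower in NPCs by a log2 difference of -1.49 (SE 0.49, adjusted p 0.0375 in edgeR). Without the ESC sample high in feeder markers, its difference was -1.10 (adjusted p 0.186 in edgeR), and without the first or the second NPC sample its adjusted p in edgeR was 0.0914 or 0.0670. *Adcy6* moved most with the feeder-rich ESC sample, from 2.69 to 4.19 without it, and its adjusted p in edgeR was 0.0592 without the second NPC sample and 0.0529 without the low-count filter. *Adcy9* lost the call with a replicate block (adjusted p 0.0563 in edgeR). *Adcy3* did not pass (-0.10, SE 0.13). The ESC and NPC samples of all 6 members did not overlap, as was so for 83.4% of genes tested. *Adcy8* rose from 1 read in 25185342 over both WT ESC samples to 584 reads in 41510735 over the WT NPC samples, a ratio per counted read of 354 (95% exact interval 63.3 to 1.4e+04, counting error only). *Adcy5* rose from 7 and 10 reads to 298, 103 and 283.

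From WT NPCs to WT PFC, 7 members that passed the filter in both and were not *Adcy7* were all called, beside 77.1% of 15957 genes tested (40.0% higher in PFC and 37.1% lower). The groups of all 7 did not overlap, as was so for 81.4% of genes tested. *Adcy1*, *Adcy2*, *Adcy3*, *Adcy5*, *Adcy8* and *Adcy9* were higher in PFC, by log2 differences from 1.48 for *Adcy3* to 3.93 for *Adcy1* (adjusted p 7.315e-06 and 1.16e-06 in edgeR). *Adcy6* was the exception, lower in PFC at 11.5, 12.7 and 9.49 RPKM against 18.1, 18.7 and 19.2 in NPCs (log2 difference -0.73, SE 0.11, adjusted p 5.141e-04 in edgeR). *Adcy4*, a G beta gamma-stimulated enzyme, had 2, 1 and 2 reads in WT NPCs and 38, 87 and 36 in WT PFC, a ratio per counted read of 55.0 (95% exact interval 23.1 to 172, counting error only). Culture and adult tissue differ in more than cell type, and these cannot be told apart here.

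Between *Phf8* genotypes, the PFC contrast chose the family. *Adcy7* had 143, 143 and 96 reads in WT and 196, 226 and 226 in KO PFC, or 2.35, 1.86 and 2.23 against 3.31, 3.69 and 4.11 RPKM. Every KO sample was above every WT sample, and the log2 fold change was 0.78 (SE 0.13, n = 3 per genotype). The share of *Adcy7* in family RPKM was 1.17% in WT and 1.86% in KO PFC, so it stayed a minor member of the family. With any 1 of the 6 samples left out the log2 fold change was 0.68 to 0.86. The same samples chose the gene, so this range is a description and no test. This gene was chosen as the 1 member past an adjusted p of 0.05 in edgeR, a threshold that 0.638% of 15364 genes passed (0.163% higher in KO), and nothing is read from that count.

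The other 9 members had log2 fold changes in PFC between -0.45 (*Adcy4*, SE 0.25) and 0.27 (*Adcy3*, SE 0.09). *Adcy3* measured 9.33, 10.1 and 8.30 RPKM in WT and 11.5, 10.6 and 11.6 in KO PFC. *Adcy1* and *Adcy2*, the most abundant members there, changed by 0.07 (SE 0.08) and 0.09 (SE 0.07). Of these 9 members, the groups of *Adcy1*, *Adcy2* and *Adcy3* did not overlap, as was so for 17.1% of all genes tested. The median log2 fold change of the 10 members, which includes the chosen *Adcy7*, was 0.10, and that of all genes tested was -0.02.

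Beside these PFC values, microglia markers summed to 442 to 465 CPM in KO and 468.5 to 485 CPM in WT samples, with all 10 markers detected in each. Oligodendrocyte markers summed to 1289 to 1369 CPM in KO and 1582 to 2075 CPM in WT samples, with all 6 detected. Both lists were lower in every KO than in every WT sample, as were blood markers (26.7 to 27.6 against 30.9 to 40.8 CPM). Endothelium markers overlapped, at 256 to 330.5 CPM in KO and 298 to 383 CPM in WT samples. In edgeR 4 of 6 oligodendrocyte markers had an adjusted p under 0.05, all lower in KO, and 0 of 10 microglia markers did. Over all genes tested 0.638% did. The part of these cells in the *Adcy7* values was not tested. Hypothalamus markers in PFC were at 0.664 to 3.44 CPM in WT and 1.47 to 2.97 CPM in KO samples.

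**Figure D4:**
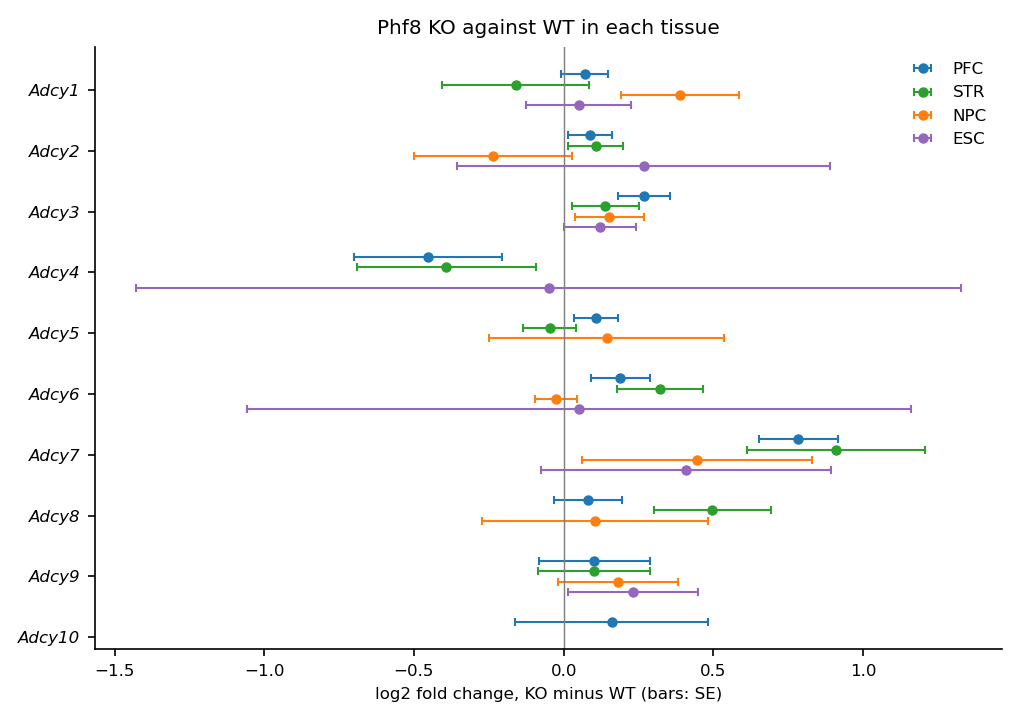
Points give the log2 fold change of each member in KO minus WT samples, with SE bars, in PFC (blue), STR (green), NPCs (orange) and ESCs (purple), and members below the filter have no point. *Adcy7* lies at 0.78 in PFC and 0.91 in STR, and the ESC bars of *Adcy4* and *Adcy6* span more than 1 log2 unit on each side.

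STR samples did not enter the choice of the family. There 0 of 9 members tested had an adjusted p under 0.05 in edgeR's quasi-likelihood test, as was so for 0% of all 15476 genes. DESeq2 and edgeR's exact test also called 0 members, while they called 60 and 104 of all genes. At an unadjusted p under 0.05, 2 members passed in edgeR, *Adcy7* and *Adcy8*, as did 8.70% of all genes tested. *Adcy7* had 142, 94 and 82 reads in WT and 296, 153 and 123 in KO STR, or 2.12, 1.62 and 1.46 against 4.88, 2.51 and 2.31 RPKM. The groups did not overlap, as for 13.2% of genes tested, and the log2 fold change was 0.91 (SE 0.30, adjusted p 0.452 in edgeR). *Adcy8* measured 2.44, 2.90 and 2.75 RPKM in WT and 5.06, 2.95 and 3.29 in KO STR (log2 fold change 0.50, SE 0.20, adjusted p 0.520 in edgeR). *Adcy5*, the main striatal cyclase, had a log2 fold change of -0.05 (SE 0.09, adjusted p 0.937 in edgeR).

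The first KO sample set much of both values. Without it the log2 fold change was 0.48 for *Adcy7* (adjusted p 0.935 in edgeR) and 0.21 for *Adcy8* (adjusted p 0.999 in edgeR). This is the sample with 126 CPM of hypothalamus markers. Over the 6 STR samples the order of *Adcy7* was the order of these markers, from 9.84 CPM of *Adcy7* beside 1.32 CPM of markers in the third WT sample to 32.8 CPM beside 126 CPM. Since every KO sample exceeded every WT sample in both, genotype and the markers cannot be told apart in STR. The difference of the genotype effect between PFC and STR was called for 0 of the 9 members other than *Adcy7* in edgeR's quasi-likelihood test. It was called for 0.00624% of 16028 genes tested. At an unadjusted p under 0.05, 0 of these members passed, against 6.41% of genes tested. DESeq2 called 0 of these members and 19 of all genes.

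**Figure D5:**
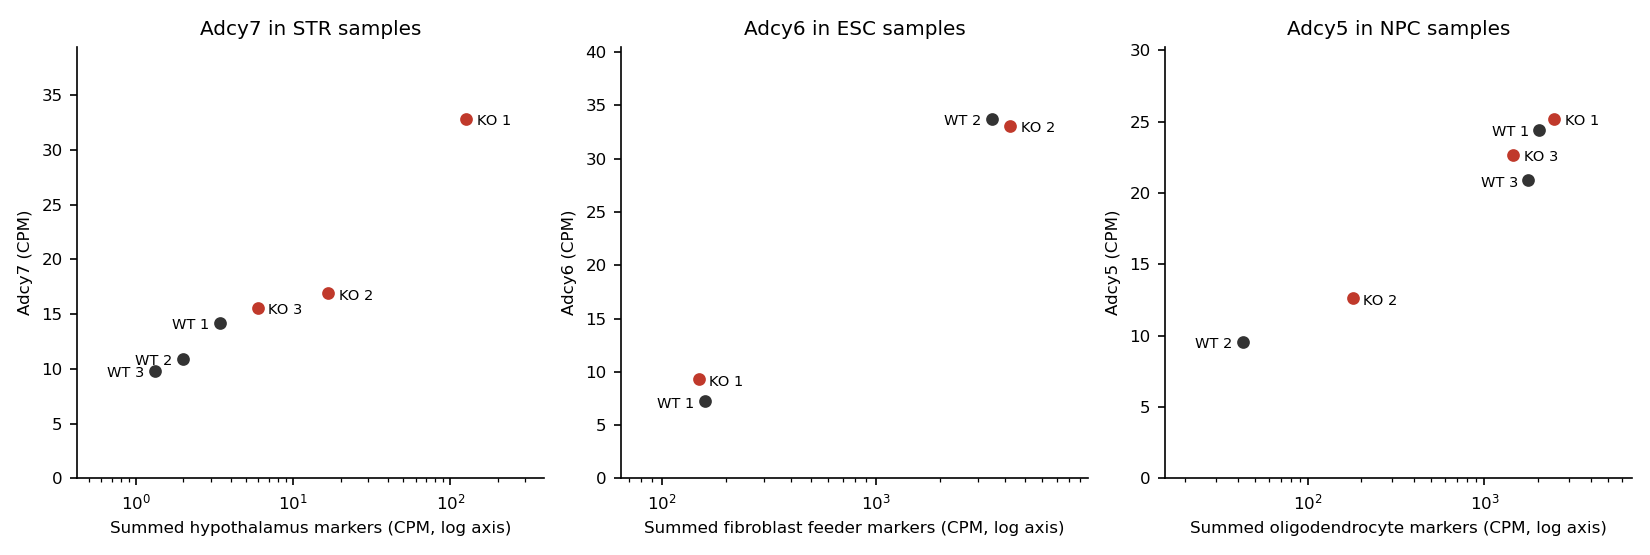
Points are samples, numbered within genotype (WT black, KO red), with summed marker CPM on a log axis and the CPM of a member on a linear axis from 0. The first STR KO sample is highest in hypothalamus markers and *Adcy7* (32.8 CPM), the second ESC samples in feeder markers and *Adcy6* (33.7 and 33.1 CPM), and the second NPC samples are lowest in oligodendrocyte markers and *Adcy5* (9.55 and 12.6 CPM).

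In NPCs 0 of 8 members tested were called in edgeR, beside 0.00697% of 14351 genes tested. At an unadjusted p under 0.05, 0 members passed, against 3.03% of genes tested. DESeq2 and the exact test called 0 members, while they called 3 and 2 of all genes. *Adcy1* had the lowest unadjusted p, at 4.41, 3.08 and 5.36 RPKM in WT and 5.55, 5.04 and 6.19 in KO samples (log2 fold change 0.39, SE 0.20, adjusted p 0.9998 in edgeR). *Adcy7* had 10, 12 and 28 reads in WT and 18, 23 and 26 in KO NPCs, overlapping groups with a log2 fold change of 0.44 (SE 0.38, adjusted p 0.9998 in edgeR). *Adcy6*, the leading NPC cyclase, changed by -0.03 (SE 0.07). Without the second sample of both genotypes, an alternative added after seeing the data, the values were 0.28 for *Adcy1* and 0.34 for *Adcy7*, and 0 members were called. The WT and KO ranges of all 8 members overlapped, while 8.17% of genes tested had groups that did not. Same-numbered NPC samples deviated together, and within these pairs *Adcy1* was higher in KO in 3 of 3, at 69.5 against 55.2, 63.1 against 38.6 and 77.6 against 67.1 CPM. *Adcy7* was higher in 3 of 3 as well, at 1.59 against 0.820, 1.82 against 1.11 and 2.068 against 2.066 CPM, the last pair being nearly equal. *Adcy3*, *Adcy5* and *Adcy9* were also higher in KO in 3 of 3 pairs, while *Adcy2*, *Adcy6* and *Adcy8* were not. The second pair of *Adcy9* was nearly equal too, at 10.2 against 10.1 CPM. The share of all genes with this order was not computed, so nothing is read from these pairs. Blocked by replicate number, the log2 fold changes of *Adcy1* and *Adcy7* were 0.41 and 0.48 (adjusted p 0.357 and 0.611 in edgeR). *Adcy4* and *Adcy10*, at 0 to 6 reads per sample, were below the filter.

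In ESCs 0 of 7 members tested were called in edgeR, beside 0% of 15080 genes tested. At an unadjusted p under 0.05, 0 members passed, against 1.13% of genes tested. DESeq2 and the exact test called 0 members, while they called 3 and 2 of all genes. *Adcy7* had 30 and 58 reads in WT and 42 and 70 in KO ESCs (log2 fold change 0.41, SE 0.48, adjusted p 1 in edgeR), and the higher value of each genotype was the feeder-rich sample. *Adcy3*, which led the family by mean share but stood below *Adcy6* in the second sample of each genotype, had 230 and 284 reads in WT and 301 and 255 in KO samples, with higher RPKM in both KO samples (log2 fold change 0.12, SE 0.12). *Adcy3* and *Adcy9* did not overlap between genotypes, as was so for 21.3% of genes tested. Without a replicate block, 23.5% of simulated 2-fold changes were recovered at the spread of these 4 samples, with 200 genes changed at once. Same-numbered ESC samples deviated together, and with the block edgeR called 513 genes and 0 members, whose adjusted p in edgeR was 0.374 to 0.992.

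The cyclases work with G proteins that switch them, phosphodiesterases that break cAMP down, and protein kinase A (PKA), Epac and CREB family proteins that respond to it. Of a list of 46 such genes, chosen with earlier results of these data known, 45 were tested between WT STR and WT PFC, where 14 were higher in STR and 6 lower (adjusted p under 0.05 in edgeR), beside 11.4% and 13.0% of all genes. The median log2 difference was 0.11 over the list and 0.01 over all genes tested. The partners of *Adcy5* in striatal neurons were among those higher in STR. *Gng7*, the gamma subunit of the striatal G protein, differed by 1.84 (SE 0.08, adjusted p 2.13e-07 in edgeR). The phosphodiesterase genes *Pde10a* and *Pde1b*, which act on cAMP and cGMP in striatal neurons, differed by 2.56 (SE 0.15) and 1.41 (SE 0.08), and *Pde1c* and *Pde7b* by 2.39 (SE 0.13) and 1.85 (SE 0.11). Lower in STR, as *Adcy1* was, were *Pde1a* (-0.70, SE 0.11), the Epac gene *Rapgef4* (-0.58, SE 0.10), *Gnaz* (-0.40, SE 0.08), *Crem* (-0.42, SE 0.11) and *Pde4a* (-0.35, SE 0.09). In KO samples 16 of 45 were higher and 8 lower, beside 13.9% and 13.8% of all genes. There *Gnal*, the olfactory type G alpha gene, differed by 1.11 (SE 0.08, adjusted p 3.743e-05 in edgeR) and *Ppp1r1b*, which encodes the PKA target DARPP-32, by 1.61 (SE 0.07, adjusted p 2.691e-06 in edgeR). Of the exon bases of *Ppp1r1b*, 15.7% overlap *1700003D09Rik*, so its value shares the limit given for *Adcy3*.

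From ESCs to NPCs, 30 of 44 list genes tested were higher and 4 lower in WT, beside 34.6% and 36.6% of all genes. The smallest adjusted p values were those of *Rapgef4* (log2 difference 4.72, SE 0.18), *Pde3b* (2.66, SE 0.14) and the PKA catalytic subunit gene *Prkacb* (2.86, SE 0.18). *Gnas*, the G alpha that drives the membrane cyclases, was higher by 2.56 (SE 0.19), and *Nespas* and *Gm20721* overlap 8.83% and 13.1% of its exon bases. *Pde8a* was lower by 4.37 on the log2 scale. From NPCs to PFC, 23 of 45 were higher and 12 lower, beside 40.0% and 37.1% of all genes, with *Gnal* higher by 3.98 (SE 0.13), *Ppp1r1b* by 5.15 (SE 0.20) and *Gnaz* by 3.17 (SE 0.15), while the inhibitory G alpha genes *Gnai2* and *Gnai3* differed by -2.44 (SE 0.13) and -2.38 (SE 0.11).

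Between genotypes in PFC, 1 of 44 list genes tested had an adjusted p under 0.05 in edgeR, beside 0.638% of all genes. It was *Pde8a*, a phosphodiesterase specific for cAMP, with a log2 fold change of -0.80 (SE 0.15). In STR, NPCs and ESCs edgeR called 0 of 45, 0 of 44 and 0 of 41, with 3, 3 and 2 at an unadjusted p under 0.05, which 8.70%, 3.03% and 1.13% of all genes passed.

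The genes most like *Adcy1*, *Adcy5* and *Adcy7* were sought as those with the smallest root-mean-square distance between mean-centred log2(CPM + 0.5) profiles over the 22 samples, among 18080 genes. For *Adcy1* they were *Hivep3* (0.35), *St8sia5* (0.36) and *Hapln4* (0.39), against a median distance of 2.13 over all genes. For *Adcy5* they were *Syt6* (0.33), *B3galt5* (0.50) and *Rgs8* (0.51), against a median of 3.11. For *Adcy7* they were *1700030J22Rik* (0.40), *Lpgat1* (0.44) and *Pip5k1b* (0.44), against a median of 1.61. These distances are a description and were not tested.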

How the data were processed

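RNA was sequenced from 22 samples, grouped by tissue and genotype from their labels. The authors called reads with CASAVA 1.7, aligned them with STAR to mm10 and counted them with HTSeq on Ensembl genes, and deposited raw counts per gene, without normalization. Table names of the cultured samples state unstranded counting, and for brain samples the setting is not given in the sources used here. Replicates of a group differed by more than counting error (chi-square over its degrees of freedom, 1.89 to 40.5), so each was counted once. Where nothing says that replicates are separate animals or cultures, p-values measure the spread between these samples only.

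The members and lists were chosen with earlier results of these data known. Symbols, positions and exon lengths came from GENCODE M21 on GRCm38, which matched 37693 of 39179 identifiers and 127 of 128 listed genes (*Pde2a* had no match), and promoter windows came from RefSeq. Each contrast was fitted with edgeR 4.0.16 in R 4.3.3 (TMM, expression filter, robust quasi-likelihood test, Benjamini-Hochberg adjusted p under 0.05 over all genes). CPM and RPKM were computed here and not by the authors. Alternatives were DESeq2 1.42.0, the exact test, RLE factors, no filter, a replicate block, both brain regions together, and leaving samples out. In simulated counts with 200 genes changed 2-fold, the test recovered 100% in PFC and STR, 93% in NPCs and 23.5% in ESCs. Fewer changed genes at once were not simulated, so these shares do not give the recovery of a lone change. In STR *Phf8* itself, at a log2 fold change of -1.37, was not called (adjusted p 0.0956 in edgeR).

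Replicate numbers pair samples where every same-numbered pair deviated together. In NPCs the correlations of deviations from the group means were 0.473 to 0.688, between STR and PFC 0.171 to 0.349 in WT and 0.127 to 0.163 in KO samples, and in PFC and STR genotype contrasts -0.03 to 0.04 and -0.02 to 0.12. In ESCs, with 2 pairs, it was 0.845. Genes were named by rule: the 10 members, *Phf8*, up to 5 list genes per direction and contrast with the smallest adjusted p, and the 3 nearest profiles of *Adcy1*, *Adcy5* and *Adcy7*.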

Additional observations from a re-analysis of the deposited data

How the results depend on the processing

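Of 797 log2 fold changes recomputed under alternatives, 737 kept their direction and their side of the threshold, 25 lost the threshold, 1 gained it and 34 changed sign. Of 104 counts of members called, 4 moved by more than 1.5 times, all in PFC KO against WT: the count was 0 when both brain regions were fitted together and ranged from 0 to 1 when a sample was left out, being 0 without the second WT, the second KO or the third KO sample. The PFC samples chose *Adcy7*, so these counts are a description and nothing is read from them. Of 380 shares of the family recomputed under alternatives, 49 moved by more than the SD between replicates, all with another length or none. Among the leading members, *Adcy6* in NPC KO was 38.2% and *Adcy1* in WT PFC 35.0% with the longest transcript as length, and *Adcy1* was 55.2% (WT) and 54.0% (KO) of PFC family counts without length. The cause of the other changes was not tested.

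Sign changes fell on values near 0 or with few samples. *Adcy4* between STR and PFC was 0.0055 in WT with a replicate block, and in KO -0.0089 by DESeq2 and -0.004 with RLE factors. Without the second NPC sample of both genotypes, *Adcy2* was 0.0391.
With 1 sample left out, values between genotypes ranged in ESCs from -0.0751 to 0.18 (*Adcy1*), -0.58 to 0.80 (*Adcy2*), -3.09 to 1.37 (*Adcy4*), -1.21 to 1.59 (*Adcy6*) and -0.16 to 0.84 (*Adcy7*), in NPCs from -0.43 to 0.12 (*Adcy2*), -0.16 to 0.40 (*Adcy5*) and -0.16 to 0.45 (*Adcy8*), in STR from -0.41 to 0.0524 (*Adcy1*) and -0.13 to 0.24 (*Adcy9*), and in PFC from -0.0594 to 0.43 (*Adcy10*), -0.0026 to 0.19 (*Adcy8*) and -0.0919 to 0.22 (*Adcy9*). Between STR and PFC they ranged from -0.42 to 0.25 (*Adcy4*, WT), and in KO from -0.12 to 0.10 (*Adcy3*), -0.12 to 0.13 (*Adcy4*) and -0.59 to 0.0223 (*Adcy7*).

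With a replicate block, 0 members were called between genotypes in STR, NPCs and ESCs. Of the members counted in the report, the block left 6 of 8 called in each regional comparison, 4 of 6 in NPCs against ESCs (*Adcy9* lost) and 7 of 7 in PFC against NPCs. Over all genes, calls ranged over the alternatives from 2 to 379 in PFC (98 as reported), 0 to 104 in STR (0), 0 to 3 in NPCs (1), 0 to 513 in ESCs (0) and 1 to 19 for the difference between regions (1). The ESC maximum came with the replicate block. The difference between regions was not run with the exact test.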
